A study of Mus musculus with 6 samples.

Results

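Long early replication domains are stretches of at least 1 Mb in which DNA is copied early in S phase without interruption. In the mouse myeloid genome examined here, 203 such domains were found on 12 chromosomes. They were chosen from the smoothed timing score that was deposited for 6 profiles. Windows were averaged into 100-kb bins, each bin took the median over the 6 profiles, and neighbouring bins with a median above 0.5 were joined. Of the 15259 bins with a value on chromosomes 1, 2, 5, 7, 8, 9, 10, 11, 13, 15, 16 and 18, 5745 passed the limit (37.6%), and 4658 of them lay in the domains, which is 30.5% of the valued bins. The score therefore chose the domains, and the score, the copy level and the profiles' spread inside them are given as a description with no test.

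Genomic DNA of growing myeloid cell lines was sequenced, from 3 samples that were Recql4 -/- Klhdc3 -/- and 3 that were WT. Each line had been immortalised by HoxB8, under selection in GM-CSF. Per the labels, a division took 15 to 18 hours and more than 25% of a culture was in S phase. The labels do not say whether the 3 samples of a genotype are separate lines or cultures of 1 line. The 6 columns of values carried no names and could not be tied to samples, so they are called profiles A to F and no genotype comparison was made. DNA depth holds no expression, so the myeloid identity of the cells was not checked here.

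Replication of mammalian DNA starts at many origins that fire at different times, and neighbouring origins tend to fire together, so that a large stretch is finished within a short part of S phase. Early domains are known for open chromatin and active genes, and late ones for compact chromatin at the nuclear lamina. In a growing, unsorted culture the early DNA is present in more copies, which is what sequencing depth reads. A score of 0 is the autosomal mean of a profile, 1 unit is 1 SD over its autosomal windows, and higher is earlier.

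The genes in these domains start from different kinds of promoter. The 250 bases before the start of 5 genes inside domains are shown from RefSeq (GRCm38.p6, the assembly that mm10 stands for), 5′ to 3′ on the strand of the gene, with each CpG in capitals. Med26, a Mediator subunit, has the earliest bin of the Mediator list, and Mrpl12, a mitochondrial ribosomal protein gene, the earliest of its list. Elane encodes neutrophil elastase. Olfr225 encodes an olfactory receptor. Ptprc, which encodes the leukocyte antigen CD45, lies in 1 of the 3 domains with the fewest genes per Mb, and 1 of its 2 listed windows is shown. That window precedes a start that lies inside the annotated gene (138062859 to 138175756).
Med26 (chr8:72548311-72548560, minus strand): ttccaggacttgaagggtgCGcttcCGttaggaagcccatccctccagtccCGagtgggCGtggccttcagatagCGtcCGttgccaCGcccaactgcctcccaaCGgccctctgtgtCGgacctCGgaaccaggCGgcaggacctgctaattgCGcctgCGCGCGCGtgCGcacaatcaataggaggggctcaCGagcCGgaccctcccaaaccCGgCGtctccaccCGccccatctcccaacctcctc
Mrpl12 (chr11:120484387-120484636, plus strand): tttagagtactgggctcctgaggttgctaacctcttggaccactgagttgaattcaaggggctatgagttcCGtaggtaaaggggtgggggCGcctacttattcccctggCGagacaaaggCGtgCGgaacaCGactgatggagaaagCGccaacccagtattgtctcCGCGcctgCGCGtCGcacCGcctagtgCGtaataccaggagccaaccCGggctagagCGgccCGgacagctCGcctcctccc
Elane (chr10:79886062-79886311, plus strand): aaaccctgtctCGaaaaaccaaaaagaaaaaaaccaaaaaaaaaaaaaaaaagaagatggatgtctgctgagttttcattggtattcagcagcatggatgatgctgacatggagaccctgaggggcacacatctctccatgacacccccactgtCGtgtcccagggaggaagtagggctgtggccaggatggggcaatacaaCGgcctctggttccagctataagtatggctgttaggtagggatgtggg
Olfr225 (chr11:59612716-59612965, plus strand): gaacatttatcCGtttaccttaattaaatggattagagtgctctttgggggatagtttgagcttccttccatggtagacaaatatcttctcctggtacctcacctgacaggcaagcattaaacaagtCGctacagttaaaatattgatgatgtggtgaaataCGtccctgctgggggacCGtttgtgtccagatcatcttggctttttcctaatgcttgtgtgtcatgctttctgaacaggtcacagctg
Ptprc (chr1:138175306-138175555, minus strand): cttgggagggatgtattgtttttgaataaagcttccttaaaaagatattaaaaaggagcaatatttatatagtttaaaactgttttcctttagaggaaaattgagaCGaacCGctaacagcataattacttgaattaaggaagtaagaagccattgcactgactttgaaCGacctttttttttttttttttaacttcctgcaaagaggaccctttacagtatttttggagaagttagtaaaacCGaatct
Med26 held 22 CpG and 65.6% G and C, and Mrpl12 held 18 CpG and 59.6%. Elane held 3 CpG, Olfr225 held 4 and Ptprc held 4, with 47.6%, 42.8% and 31.6% G and C. The Ptprc window that is not shown held 2 CpG and 36.8% G and C. These 5 genes lie in 5 different domains and were picked by hand.

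The domains covered 466.4 Mb. Their median size was 1.7 Mb, the middle 50% lay between 1.2 and 2.75 Mb, and the longest measured 9.6 Mb. Of the 203 domains, 111 were under 2 Mb and held 31.6% of the total length, 47 measured 2 to under 3 Mb, 30 measured 3 to under 5 Mb, and 15 measured 5 Mb or more and held 21.1% of the length. Only 6 domains bridged a bin without a value. At the size limit, 16 runs of 1 Mb were kept and 24 runs of 0.9 Mb were not. The kept ones had a median score of 0.96 (0.72 to 1.26) and 11.6 protein-coding genes per Mb, and the others 0.84 (0.55 to 1.12) and 13.1 genes per Mb. At the score limit, the last bin inside an edge had a median of 0.58 (lowest 0.5003) and the first bin outside one of 0.43 (highest 0.4997).

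**Figure D1:**
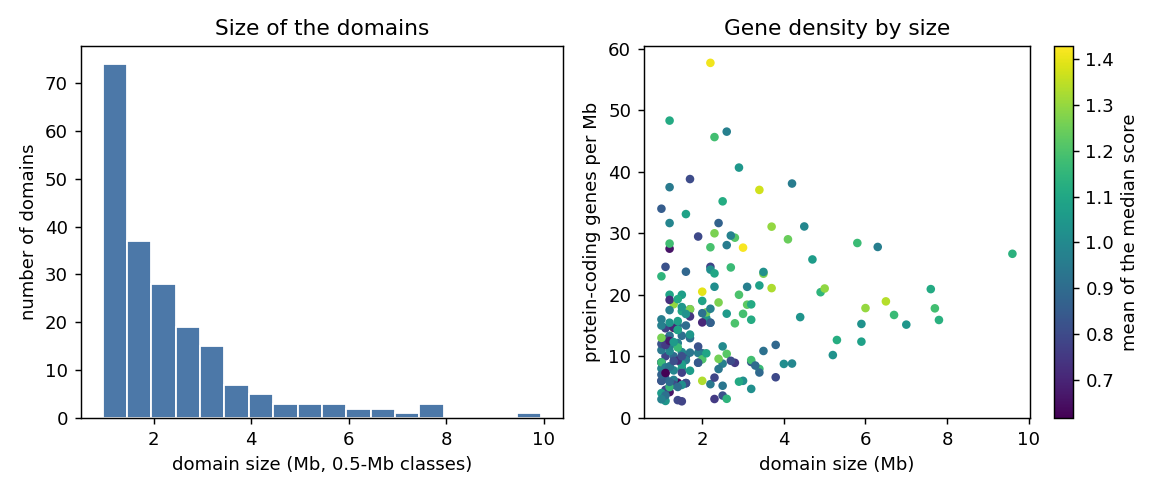
Left, number of domains (vertical axis) by size in Mb, in classes of 0.5 Mb. Right, protein-coding genes per Mb against size in Mb, 1 point per domain, coloured by the mean of the median score; most domains are short, and the 15 of at least 5 Mb hold 10.2 to 28.4 genes per Mb.

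Chromosome 11 was the most occupied of the 12, with 21 domains over 47.4% of its valued bins, and chromosome 2 followed with 22 domains over 38.1%. Chromosome 18 was the least occupied, with 10 domains over 18.3%, and chromosome 1 held 24 domains over 23.1%. Chromosome 15 had few domains, 9, but both a 9.6-Mb and a 6.3-Mb one among them. Neighbouring domains stood a median of 2.9 Mb apart, and 15 of the 191 gaps measured at most 0.3 Mb.

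The longest domain (chromosome 15, 74400001 to 84000000) contained Recql4 itself, the helicase gene deleted in the mutant cells. With 256 protein-coding genes it also held the most genes of any domain. Among them were Csf2rb, which encodes the signalling subunit of the GM-CSF receptor (bin score 1.20, 0.995 to 1.27 among profiles), and Polr2f, an RNA polymerase II subunit gene (1.38, 1.35 to 1.44). The bin of Recql4 scored 1.29 (1.19 to 1.35). The domain as a whole scored 1.09, 1.08, 1.10, 1.16, 1.16 and 1.18 in profiles A to F, with copy levels of 2.14, 2.13, 2.11, 2.12, 2.13 and 2.16. The profiles thus lay within 0.092 score units of each other over 9.6 Mb, with D, E and F above A, B and C. The median profile had 5 separate timing peaks inside the domain, the most of any domain.

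The domain was not equally continuous in each profile. The profiles differed most at the Apol genes, the apolipoprotein L family. In the bin from 77500001 to 77600000, with Apol10b, Apol11a and Apol7c, the scores were 0.39, 0.26, 0.22, 1.06, 1.01 and 0.94 in profiles A to F. Profiles A, B and C lay under the limit there and D, E and F well above it, and with the rule applied to each profile alone the domain fell into 2 runs in A, B and C. The unsmoothed copy level differed at the same place. Over the 10 windows of 77500001 to 77700000 that were valued in each profile it was 1.82, 1.80, 1.83, 2.11, 2.13 and 2.13 in A to F. Over the other 905 such windows of the domain it was 2.15, 2.13, 2.12, 2.12, 2.13 and 2.16, with no such separation. In the bin from 77300001 to 77400000 the scores were also apart, at 0.39, 0.33, 0.30, 0.81, 0.76 and 0.66. The copy levels there were 1.92, 1.94, 1.92, 1.91, 1.91 and 1.93, without such a gap. From 77700001 to 77800000 the scores were 0.78, 0.64, 0.59, 1.27, 1.24 and 1.24. The copy levels there were 2.24, 2.20, 2.17, 2.24, 2.24 and 2.24. Of the 32 windows from 77400001 to 77800000, 9 carried no copy level in each of A, B and C, and 1 in each of D, E and F. Over the 926 windows of the whole domain, 11 were without a value in A, B and C and 3 in D, E and F. Whether the local copy level set the smoothed score of the neighbouring bins was not tested.

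**Figure D2:**
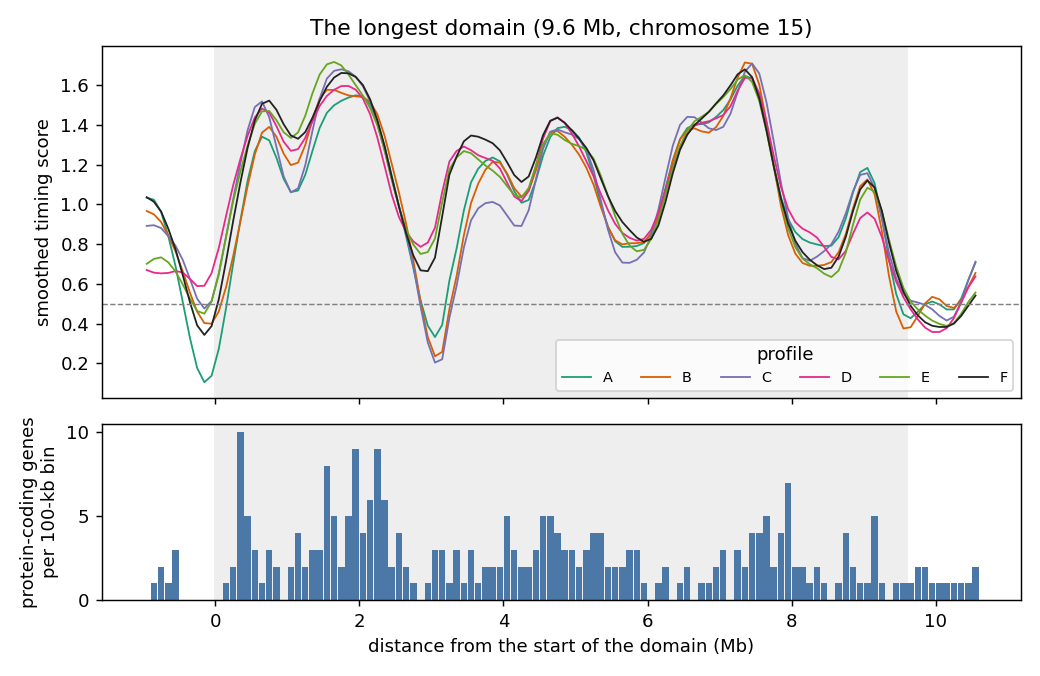
Upper panel, smoothed timing score (vertical axis) of profiles A to F in 100-kb bins along the longest domain, by distance in Mb from its start; grey shading marks the domain and the dashed line the limit of 0.5. Lower panel, protein-coding genes per bin; A, B and C drop under the limit at the Apol genes, where D, E and F do not.

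The other long domains repeated this build of many genes and several peaks. A 7.7-Mb domain on chromosome 2 (28500001 to 36200000) held 137 genes, with Lcn2, a protein of neutrophil granules, Psmd5, a proteasome assembly chaperone, Rpl12 and Med27. It scored 1.19, 1.21, 1.22, 1.16, 1.23 and 1.05 in A to F, with F lowest. A 7.0-Mb domain on chromosome 11 (82100001 to 89100000) held 106 genes, among them Mpo, the myeloperoxidase of neutrophil granules, and the olfactory receptor genes Olfr462 and Olfr463. It scored 1.07, 1.10, 1.08, 1.01, 1.09 and 0.91, again with F lowest. The others of the 10 longest lay on chromosomes 2, 5, 7, 11, 15 and 16, with 73 to 175 genes each and mean scores between 0.96 and 1.34. A domain on chromosome 8 (121500001 to 127400000, 90 genes, score 1.03) measured 5.9 Mb, the same as the shortest of these, and shares its place. Just shorter, a 5.8-Mb domain on chromosome 9 (105700001 to 111500000) held 162 genes, including Camp, Ngp and Ltf, which encode granule proteins of neutrophils, at bin scores of 1.14, 1.27 and 0.95.

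The chromosome 11 domain with Mpo also carried 2 microRNA genes known from blood cells, chosen after their places were seen, and a neighbouring 6.5-Mb domain carried Mir22. Mir142 is a haematopoietic microRNA gene, Mir21a is active in many cell types, and their bins scored 1.12 and 1.24. The bin of Mir22 scored 1.62. Their main mature sequences, from the RefSeq annotation of GRCm38.p6, have different seeds (bases 2 to 8, in capitals).
mmu-miR-142a-3p (chr11:87756903-87756925, plus strand): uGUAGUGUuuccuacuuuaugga
mmu-miR-21a-5p (chr11:86584120-86584141, minus strand): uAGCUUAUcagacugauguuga
mmu-miR-22-3p (chr11:75463772-75463793, plus strand): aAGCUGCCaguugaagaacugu
Of the 751 microRNA genes in valued bins, 453 (60.3%) lay in domains, close to the 58.2% of protein-coding genes.

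The earliest domains were not the longest. The highest mean score, 1.43, belonged to a 1.3-Mb domain on chromosome 1 (190700001 to 192000000) with Ints7, an Integrator subunit gene, Dtl, which encodes a substrate receptor of CUL4 ligases, and the mitotic kinase gene Nek2. A 3.0-Mb domain on chromosome 11 (119000001 to 122000000) with Mrpl12 scored 1.42, at 1.46, 1.48, 1.47, 1.34, 1.43 and 1.18 in A to F. A 2.2-Mb domain on chromosome 10 (79500001 to 81700000) scored 1.41 and was the most gene-dense of all, with 57.7 protein-coding genes per Mb. It held the neutrophil protease genes Elane and Prtn3 in 1 bin (1.59, 1.47 to 1.68) beside Med16 and Polr2e, and its scores of 1.41, 1.46, 1.46, 1.43, 1.34 and 1.34 kept every bin above the limit in each profile. The single earliest bin of any domain, at 2.12, was that of Med26 in a 3.4-Mb domain on chromosome 8 (69400001 to 72800000) with 126 genes.

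The domains nearest to the limit had scores between 0.62 and 0.67. The lowest lay on chromosome 18 (9800001 to 10900000), with Esco1, a cohesin acetyltransferase gene, and Snrpd1, a spliceosome protein gene. Others held Itga4 and Neurod1 (chromosome 2, 79000001 to 80400000), Orc4, an origin recognition subunit, with Mbd5 (chromosome 2, 48500001 to 49700000), Casq1 (chromosome 1, 171400001 to 172600000) and Dgkg (chromosome 16, 22200001 to 23400000). In these 5 domains between 35.7% and 58.3% of the bins passed the limit in each of the 6 profiles, against a median of 90.0% over the 203 domains.

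Larger domains had somewhat higher scores, and those under 2 Mb had fewer genes per Mb. The median score was 0.93 under 2 Mb, 1.04 at 2 to under 3 Mb, 1.05 at 3 to under 5 Mb and 1.13 at 5 Mb or more. Genes per Mb were 12.8, 18.9, 18.3 and 18.8 in these classes, with no rise from 2 Mb on. Across the 203 domains, Spearman's rho was 0.40 between size and score, 0.32 between size and genes per Mb and 0.39 between score and genes per Mb. These are descriptions across regions of 1 genome, measured in the same libraries, and size and score both follow from the rule. Of 589 timing peaks with a prominence of at least 0.25 on the 12 chromosomes, 276 (46.9%) lay in domains, at 0.592 per Mb, and 0.295 per Mb lay elsewhere. A single peak was found in 152 domains, 2 or more in 50 and none in 1.

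Gene content was not used by the rule. The domains held 7835 of the 13460 protein-coding genes in valued bins (58.2%) on 30.5% of those bins. This is 16.8 genes per Mb inside, against 5.31 per Mb in the rest of the 12 chromosomes, a ratio of 3.17. The ratio was above 1 on each of the 12 chromosomes, from 1.82 on chromosome 13 to 6.75 on chromosome 15. Without the 1036 olfactory and vomeronasal receptor genes, which are numerous in late DNA, the ratio was 3.75. No domain was without a gene, and the counts ran from 3 to 256. In domain bins 25.6% had no gene midpoint, against 67.8% of the other bins.

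Gene density also differed with the length of the early run. The 185 runs above the limit that were shorter than 1 Mb held 10.9 genes per Mb, less than the 16.8 of the domains, and this order held on 10 of 12 chromosomes, with 13 and 16 as the exceptions. The difference was smaller for domains of 1 to under 2 Mb, which held 12.8. Next to the size limit the order was reversed, with 13.1 in runs of 0.9 Mb and 11.6 in runs of 1 Mb. Runs of at least 1 Mb below -0.5, the late counterparts, numbered 159 with a median size of 2.0 Mb and held 2.79 genes per Mb. No test was made of these differences, because genes and bins of 1 genome are not replicates.

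Genes inside domains were seldom very long. A length over 500 kb was found for 11 of the 7835 genes in domains (0.14%), for 5 of the 1189 in shorter early runs (0.421%) and for 116 of the 4436 in the remaining bins (2.61%). The longest were Pde4d, a cAMP phosphodiesterase gene of 1302 kb on chromosome 13 with a bin score of 0.98, and Galntl6 on chromosome 8 at 0.79. Genes were placed by their midpoint, and the score is that of the midpoint bin. Galntl6, at 1140 kb, is longer than its 1.1-Mb domain and so reaches beyond it. That domain was not found in profile C alone. Others were Lpp (1.43), Kalrn (0.92) and Elmo1, an engulfment gene of phagocytes (0.90). The median gene length was 17.7 kb inside and 25.7 kb in shorter early runs. It was 16.6 kb in the remaining bins, or 26.9 kb there without the receptor genes, so the order of the medians depended on those genes.

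The fewest genes per Mb were found in domains on chromosome 13 (44100001 to 45600000, 2.67 per Mb) with Jarid2, a cofactor of Polycomb repressive complex 2, and Dtnbp1, on chromosome 1 (137500001 to 138600000, 2.73 per Mb) with Ptprc, and on chromosome 10 (90800001 to 92200000, 2.86 per Mb) with Apaf1, the apoptosome scaffold, and Tmpo. The Ptprc domain scored 1.01, 1.07, 1.06, 0.87, 0.97 and 1.11 in A to F, and its median score of 1.04 lay above that of the median domain (0.98), although it held only 3 genes. Besides the Elane domain, the densest lay on chromosome 7 (18900001 to 20100000, 48.3 per Mb) with Zfp296 and Gemin7, and on chromosome 11 (68600001 to 71200000, 46.5 per Mb) with Polr2a, Psmb6 and Med11.

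The gene lists were counted against the 58.2% of all protein-coding genes that lay in domains. Genes of the myeloid lineage were nearly all inside. Of the 10 measured neutrophil granule and granulocyte genes 9 lay in 6 domains, and the tenth, Mmp8, lay in a shorter early run at 0.87. Lcn2 was the earliest at 1.63 (1.44 to 1.86), and Gfi1, a transcription factor of granulocytes, stood at 1.57 (1.33 to 1.62). Of the 10 macrophage and monocyte genes 9 lay in 9 different domains, led by Spi1, the gene of the myeloid transcription factor PU.1, at 1.53 (1.33 to 1.59). Itgam stood at 1.28, Cd14 at 1.26 and Irf8 at 0.71. Presence in an early domain is a property of the DNA and does not show that a gene was expressed.

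Genes of basic cell functions were mostly inside under the rule. This held for 21 of 24 proteasome subunit genes, 26 of 33 RNA polymerase II and Mediator genes, 41 of 55 cytosolic and 30 of 44 mitochondrial ribosomal protein genes. Exceptions were the bin shared by Psma2 and Mrpl32 on chromosome 13 at -0.78 (-1.08 to -0.63), Med30 at -0.63 and Rps12 at -0.28. The mitochondrial share of 68.2% was not far from the 58.2% of all genes. On the scaled copy level in place of the score, 37.3% of all protein-coding genes lay in domains, and 41.8% of the cytosolic ribosomal and 48.5% of the RNA polymerase II and Mediator genes did. The origin licensing and firing genes numbered 18 of 26 inside, or 69.2%. That share depended on the setting, with 34.6% at a limit of 0.75 (42.5% of all genes), 42.3% when the lowest profile had to pass (49.3% of all genes) and 26.9% on the scaled copy level. The earliest were Donson at 1.57, the licensing factor gene Cdt1 at 1.55 and Mcm6, a subunit of the replicative helicase, at 1.49. Orc5 at -0.41, Mcm3 at -0.40 and Dbf4, the activator of the Cdc7 kinase, at -0.22 lay outside, whereas Cdc7 lay inside at 0.67 (0.50 to 0.73). Topbp1, a replication initiation factor, missed the limit with 0.499 (0.19 to 0.65).

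Among the lists of clustered genes, the histone and protocadherin shares depended on single profiles, and the share of each list changed with the limit. Replication-dependent histone genes were inside in 31 of 53 cases, or 58.5%, and these 31 sat in a single domain on chromosome 13 (23300001 to 25200000) that also held 40 tRNA genes, of 154 tRNA genes in all domains. That domain scored 0.80 (0.60 to 0.86) and was not found in profile E alone. The histone share was 90.6% with profile C or profile E left out (58.9% and 57.9% of all genes). It was 0% at a limit of 0.75 (42.5% of all genes) or when the lowest profile had to pass (49.3% of all genes). Zfp zinc finger genes were inside in 139 of 268 cases, 24 of them in a domain on chromosome 7 (27200001 to 31400000). Keratin and keratin-associated protein genes, counted together, numbered 45 of 109, of which 26 lay in the 6.3-Mb domain of chromosome 15. Protocadherin genes numbered 21 of 57, or 36.8%. The protocadherin share was 56.1% with A, B or C left out (57.7 to 58.9% of all genes). It was 0% at a limit of 0.75 (42.5% of all genes) and on the scaled copy level (37.3% of all genes). Members of 1 cluster share bins, so these counts rest on few places.

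Genes of sensory and neuronal function were mostly outside. Of 892 olfactory receptor genes 101 (11.3%) lay in 15 domains, 19 of them in a domain on chromosome 11 (48600001 to 50800000), and Olfr225 at 1.58 (1.50 to 1.63 among profiles) was the earliest. Of 144 vomeronasal receptor genes 3 (2.08%) were inside, and 4.17% with D, E or F left out (57.9 to 58.8% of all genes). Of 9 neuronal genes 2 were inside, the potassium channel gene Kcnq3 at 1.36 (1.21 to 1.44) and the calcium channel gene Cacna1a at 0.74. None of the 6 very long genes at common fragile sites lay in a domain, with Csmd1 the highest at -0.08 (-0.61 to 0.10) and Lrp1b the lowest at -1.39.

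**Figure D3:**
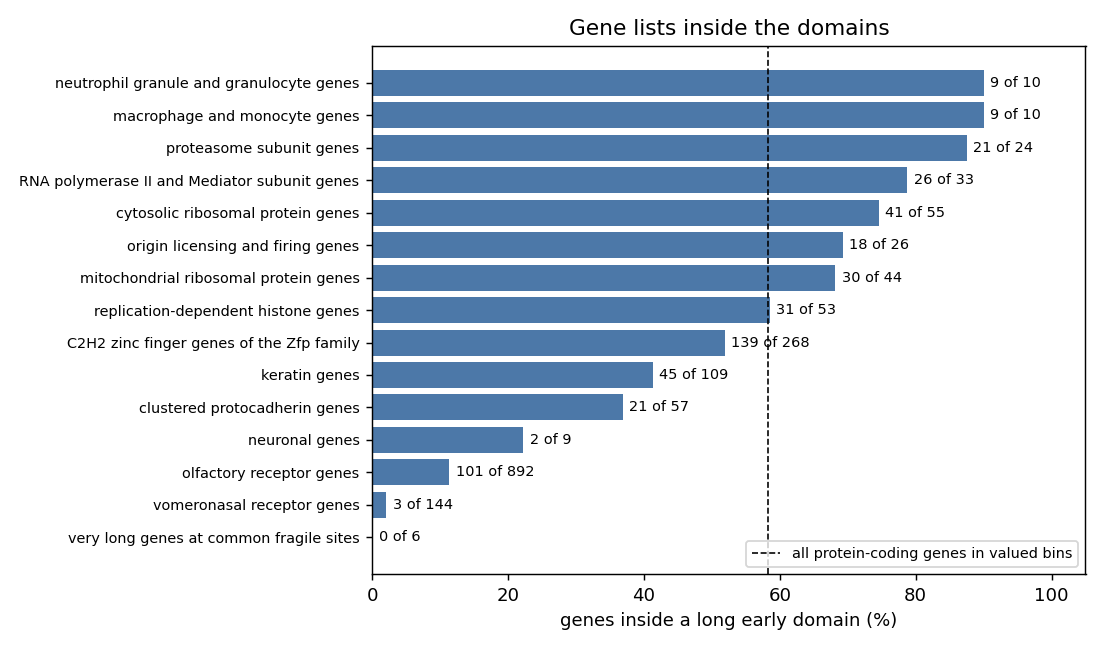
Percent of the measured genes of each list (horizontal axis) that lie inside a long early domain, with counts beside the bars; the dashed line is the 58.2% of all protein-coding genes in valued bins. Myeloid and proteasome lists stand at 87.5 to 90.0%, receptor and fragile-site lists at 0 to 11.3%. The keratin list includes keratin-associated protein genes.

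Of other kinds of genes, 62.3% of tRNA genes lay inside domains, near the 58.2% of protein-coding genes, and 40 of these 154 tRNA genes sat in the histone domain. The shares were lower for lncRNA genes at 45.6%, snRNA genes at 41.7%, snoRNA genes at 37.1% and pseudogenes at 32.7%.

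Promoters inside the domains were richer in G and C than those in the remaining bins, and close to those in shorter early runs. RefSeq promoter windows were matched for 10544 genes on 11 chromosomes (81.4% of those in valued bins, chromosome 18 not used here). Medians and shares are over windows, and 1643 genes with several windows counted more than once. The 250 bases before the start had a median of 58.4% G and C and 13 CpG inside domains, 57.2% and 12 in shorter early runs, and 49.6% and 5 in the remaining bins. With receptor genes left out, domains stood at 58.4% and 13 CpG, shorter early runs at 57.6% and 13, and the remaining bins at 53.6% and 8. A promoter was counted as CpG-rich above 55% G and C and an observed-to-expected CpG ratio of 0.6. That share was 45.5% inside, 43.5% in shorter early runs and 33.6% in the remaining bins without receptor genes, against 42.1% of all promoters, and it was larger inside than outside on 11 of 11 chromosomes. The GC box letters GGGCGG, on either strand, occurred in 51.2%, 46.7% and 38.4% of these promoters, against 47.4% of all. The letters TATAAA, on either strand, occurred in 7.59%, 8.18% and 14.1%, against 9.39% of all. A match of letters is a description and not a binding site. Of the 5 promoters printed above, that of Med26 held the GC box letters and that of Ptprc held TATAAA on 1 of the strands. The other listed window of Ptprc, not printed, held TATAAA on neither strand. In the neutrophil list no promoter was CpG-rich (0 of 10 windows of 9 genes), although 9 of its 10 genes lay in domains.

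Gene density differed between the sides of an edge but did not follow the score outside it. Over the 406 domain edges, the score averaged over edges fell below 0.5 in the first bin outside in each profile, and the median reached -0.09 at 0.6 Mb outside. The outermost bin inside held 11.8 genes per Mb and the fifth, 0.5 Mb in, 16.5, while the bins outside held 7.25 to 9.30, with 8.82 in the first and the most, 9.30, at 0.6 Mb out, where the median score was lowest. Across a short gap the bins outside an edge include bins of the next domain, and 15 of the 191 gaps measured at most 0.3 Mb. The values outside are therefore a mixture, and gene density in bins of no domain was not followed by distance. The median copy level of the profiles was 2.06 in the outermost bin inside and 2.13 at 0.5 Mb in, against 2.02 in the first bin outside. The edge position itself varied among profiles. In 336 edges each profile crossed the limit within 1 Mb, and the 6 crossings spread over a median of 200 kb. They fell within 1 bin of each other at 47.0% of these edges and in the same bin at 4.46%.

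**Figure D4:**
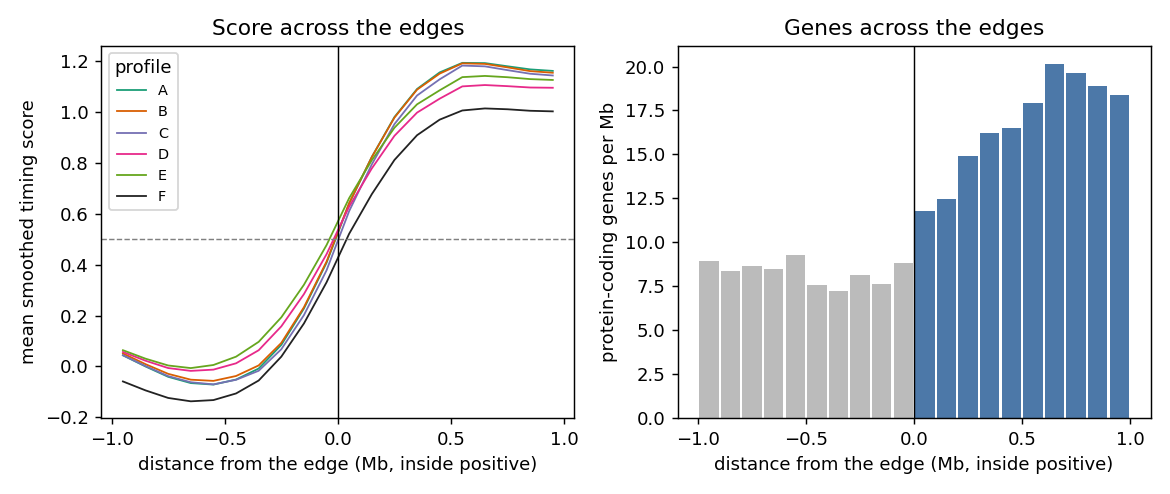
Left, mean smoothed timing score of profiles A to F by distance in Mb from a domain edge, inside positive, over both edges of the 203 domains; beyond 0.5 Mb inside, domains of at least 2 Mb are used. Right, protein-coding genes per Mb at the same distances; genes stand at 7.25 to 9.30 per Mb outside and stand at 16.2 to 20.2 per Mb from 0.4 Mb inside on. Across a short gap, bins outside include bins of the next domain.

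The median over these same 6 profiles chose the domains, so some agreement among profiles was built in. The domains were found in most profiles when the rule was applied to each alone. This gave 212, 204, 203, 199, 203 and 192 domains in A to F, covering 485.3, 474.7, 453.1, 472.8, 499.9 and 412.4 Mb. At least 80% of the bins of a domain lay in a run of the same profile for 196, 197, 188, 190, 194 and 165 of the 203 domains, and in all 6 profiles for 146. A domain had no bin in such a run in at least 1 profile in 35 cases, and the longest of these measured 2.0 Mb. The limit was passed in each of the 6 profiles by 86.8% of the domain bins. The scores of the profiles ranged over at least 1 unit in 4 domain bins (0.0859%) and in 116 other bins (1.09%), against 0.786% of all bins. These are the widest ranges only. In the typical bin the profiles differed by a similar amount, with a median range of 0.261 in domain bins and 0.286 in other bins.

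Profile F accounted for much of the spread. The mean score of a domain ranged over a median of 0.214 units among the 6 profiles, 0.034 at the least and 0.674 at the most, and over a median of 0.139 without F. F was the lowest profile in 157 of 203 domains. The mean score over domain bins was 1.08, 1.07, 1.06, 1.01, 1.04 and 0.91 in A to F. The copy level did not show this order. Over domain bins it was 2.14, 2.13, 2.11, 2.10, 2.12 and 2.12, against 1.92, 1.92, 1.93, 1.91, 1.90 and 1.90 in the other bins, a ratio of 1.12, 1.11, 1.10, 1.10, 1.11 and 1.12. F thus had the second highest ratio. Its deposited score also had the lowest mean (-0.03) and SD (0.92) over the 12 chromosomes, against 0.03 to 0.07 and 0.94 to 0.98 in the others. After each profile was rescaled over these 12 chromosomes, F was the lowest in 45 domains and D in 54.

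The 5 domains with the widest spread included 4 at the distal end of chromosome 5. There D had the highest domain mean. At the domain with Mcm7, a subunit of the replicative helicase (137500001 to 141000000), the scores were 1.06, 1.06, 1.04, 1.39, 0.99 and 0.88 in A to F. In the bin of Mcm7 itself they were 1.26, 1.23, 1.32, 1.14, 1.06 and 1.01, with D under A, B and C. At the next domain, with Zfp12 (142100001 to 144100000), the scores were 0.95, 0.96, 0.95, 1.42, 0.89 and 0.75. The domain with the cytokine receptor gene Flt3 and with Rpl21 (146000001 to 148000000) scored 0.72, 0.69, 0.71, 1.04, 0.61 and 0.48, and that with the repair gene Brca2 (150100001 to 151100000) 1.01, 0.95, 1.05, 1.23, 0.79 and 0.56. The higher score of D was not limited to domains. From 137500001 to the end of chromosome 5, D exceeded the median of the others by 0.394 over 85 domain bins and by 0.537 over 56 other bins, with copy levels of 2.14 against 2.11 and of 2.07 against 2.01. On the earlier part of chromosome 5 the difference was -0.03 in domain bins and 0.03 in other bins. The remaining domain of the 5, with Rps15a on chromosome 7 (117400001 to 118900000), scored 0.84, 0.89, 0.84, 0.73, 0.63 and 0.39, and none of its bins passed the limit in each profile.

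**Figure D5:**
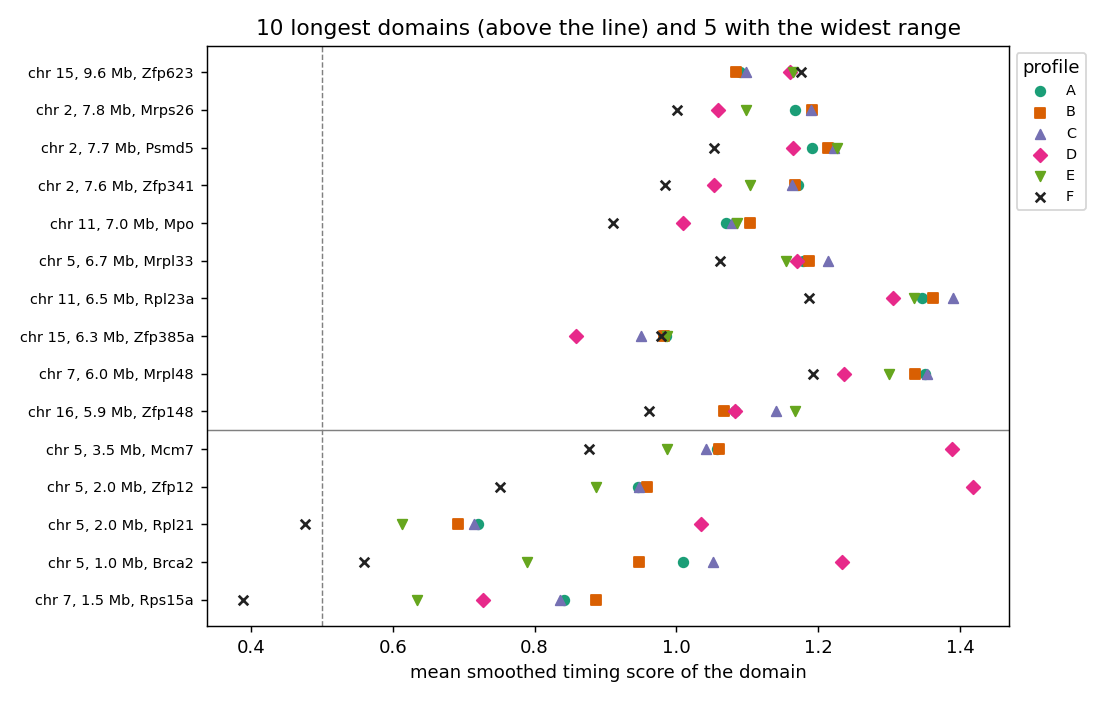
Mean smoothed timing score (horizontal axis) of 15 domains in profiles A to F, each marker a profile; domains are labelled by chromosome, size and a gene in them. Above the line are the 10 longest, from 9.6 Mb to 5.9 Mb, and below it the 5 with the widest range, where D is highest at 4 domains of chromosome 5 and F is lowest at each of the 5.

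Single bins inside domains with a wide range among profiles were picked after their values were seen. The mean of a domain cannot range more widely than its widest bin, so no comparison with whole domains is drawn. On chromosome 1 the bin from 157000001 to 157100000, at the end of a domain, scored 0.97, 0.94, 1.15, 0.43, 0.34 and -0.12 in A to F, with copy levels of 2.11, 2.14, 2.15, 1.98, 1.98 and 1.92. A, B and C were higher there in both measures. At Ivd and Knstrn on chromosome 2 (118800001 to 118900000), where Knstrn encodes a kinetochore protein, the scores were 1.90, 1.93, 2.34, 1.53, 1.47 and 1.33. At Dyrk1a, a kinase gene on chromosome 16 picked after its values were seen (94600001 to 94700000), they were 1.15, 1.30, 1.22, 0.95, 1.01 and 0.33, with F apart from the others, and the copy levels were 2.24, 2.25, 2.21, 2.16, 2.18 and 2.10.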

How the data were processed

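The 2 deposited tables have no header. The first holds a copy signal per window (median 10041 bp) and the second a smoothed score, both made by the authors. From the values, the copy signal is scaled to an autosomal median of 1.96 to 1.98 and the deposited score to mean 0 and SD 1 over autosomal windows in each column. The submitters' processing notes name Picard 2.23.9 and the mm10 build, and the series title names TIGER. Reads were 150 bp paired ends, and 30-fold coverage was aimed for, per the protocols in the labels. Neither the realised depth nor the aligner, GC correction and smoothing settings are stated in the sources used here, and intervals from counts were therefore not given. Scaling each column removes differences in overall amplitude. The limma comparison of genotypes that had been planned was not run, since no column could be tied to a sample.

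Bins of 100 kb needed at least 3 windows valued in all 6 profiles, and a window belonged to the bin of its midpoint. A single missing bin could be bridged. Domain values are means over bins. Genes came from RefSeq (GRCm38.p6), placed at their midpoint without strand and given the median score of their bin. Domains named were the 10 longest, the 5 highest, the 5 lowest and the 5 widest in range, and the 3 richest and the 3 poorest in genes. The genes named in them were first members of the gene lists and then those nearest the earliest bin, with others picked by hand for their known roles after their places were seen. For each list the earliest and latest member were named, with others again picked by hand. Some genes that this rule names are not reported here. The domains and lists were chosen with earlier results of these data known. Joining and counting were tested on simulated windows. Tools were Python 3.11.15, pandas 2.3.3, numpy 2.4.6 and scipy 1.17.1.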

Additional observations from a re-analysis of the deposited data

How the results depend on the processing

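No paired analysis was possible because no column of values names its sample or replicate. The alternatives without receptor genes and without distal chromosome 5 were added after the data were seen. Leaving out distal chromosome 5 gave 199 domains and kept each of the 7 main values within the spread of the profiles or 1.5 times the count. The number of domains was 337 with a minimum run of 0.5 Mb and 92 with 2 Mb, by construction. The share of bins in domains was 41.3% at a limit of 0.25, 19.4% at 0.75, 36.7% and 20.9% with minimum runs of 0.5 and 2 Mb, 23.8% when the lowest profile had to pass, and 17.1% on the scaled raw level, on which 68 of the 203 domains were covered to at least 80%. The median size was 2.1 Mb at a limit of 0.25, 1.2 and 2.9 Mb with minimum runs of 0.5 and 2 Mb, and 1.4 Mb on the scaled raw level. The gene density ratio was 3.28 and 3.08 at limits of 0.25 and 0.75, 3.33 and 3.00 with minimum runs of 0.5 and 2 Mb, 3.11 when the lowest profile had to pass, 2.88 on the scaled raw level, 3.11 after rescaling over the 12 chromosomes, 2.22 with all kinds of genes and 3.75 without receptor genes. The copy level ratio was 1.10 with runs of 2 Mb. The median range among profiles was 0.207 and 0.220 at the limits of 0.25 and 0.75, 0.223 and 0.203 with runs of 0.5 and 2 Mb, 0.154 on the scaled raw level, 0.152 after rescaling and 0.228 with medians per domain. The median share of domain bins passing in every profile was 84.8% at a limit of 0.75 and 100% when the lowest profile had to pass, by construction. With a profile left out, domains numbered 200 to 206, the share of bins was 30.2 to 31.1%, the median size was 1.7 Mb, the gene density ratio was 3.15 to 3.20, the copy level ratio 1.109 to 1.114, the median range 0.139 (without F) to 0.211, and the share of bins passing in every profile 90.0 to 92.9%. For the gene lists, 169 of 240 recomputed values stayed within the profiles' spread. That spread, an SD over profiles, was 38.4 percentage points for histone genes and 0 for neutrophil and fragile-site genes. The count is therefore no measure of how stable the lists were. On the scaled raw level 50.0% of macrophage and monocyte and 58.3% of proteasome genes lay in domains, against 37.3% of all protein-coding genes. At a limit of 0.75 the shares were 15.6% for keratin and keratin-associated protein genes and 4.82% for olfactory receptor genes, against 42.5% of all protein-coding genes. Where not by construction, the cause of a change was not tested. The realised depth is unknown, and what it limits was not assessed.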
